A study of Homo sapiens with 8 samples.

Results

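The 39 genes of the 4 human HOX clusters, HOXA, HOXB, HOXC and HOXD, were read out of exon-array profiles of HEK293 cells. They were taken by gene symbol, as every gene named HOXA, HOXB, HOXC or HOXD followed by a number, out of 18259 genes that had probe sets with 1 symbol. They carried 324 such probe sets, and no HOX probe set carried several symbols. HEK293 is a line derived from human embryonic kidney, grown here in RPMI medium with serum. The cells labelled shELL are a stable derivative made to deplete ELL by RNA interference, and the control cells are the wild-type line. RNA was taken from shELL cells given 50 ng/mL EGF for 1 h, unstimulated shELL cells, control cells given 50 ng/mL EGF for 1 h and unstimulated control cells, with 2 biological replicates each and 8 arrays in all. The labels do not say whether the shELL cells were 1 clone.

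HOX genes encode homeodomain transcription factors that set position along the body axis. Within a cluster the genes lie in 1 orientation, numbered by paralog group, with group 1 at the 3′ end and group 13 at the 5′ end. Genes at the 3′ end are in general switched on earlier and further towards the head than those at the 5′ end, and cells in culture often keep the pattern of the tissue they came from. Polycomb complexes keep silent clusters off, MLL complexes keep active ones on, and PBX, MEIS and PKNOX proteins bind DNA together with HOX proteins. ELL, a subunit of the super elongation complex, is a fusion partner of MLL in leukaemia, and HOXA9 is a well-known target of MLL fusions.

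The arrays report a log2 value for each probe set, a small group of probes on an exon or part of one. They were not on 1 scale as deposited (array medians 1.33 to 2.95) and were quantile normalized. Replicate 1 of shELL with EGF stood apart: it was the dimmest as deposited, and its median correlation with the other arrays was 0.81, against 0.91 to 0.95 for the others. ELL itself was not lower in the shELL cells. Its gene value was 3.86 and 2.65 in shELL with EGF, 2.93 and 2.63 in unstimulated shELL, 2.57 and 2.88 in control with EGF, and 2.54 and 2.50 in unstimulated control. The difference of shELL over control, averaged over both EGF states, was 0.40 (SE 0.29, limma adjusted p = 1), so the arrays labelled shELL are called by their label only. These ELL values lie near or below the background thresholds used further on, which were 2.29 to 4.27 by array. The value of 3.86 came from replicate 1 of shELL with EGF, where the threshold was 4.27. The thresholds were set for single probe sets and not for gene values, so this nearness is only a rough guide. These values do not settle whether a depletion of ELL took place. The EGF treatment was visible in EGR1, an immediate-early zinc finger factor, which rose 11.9-fold averaged over both lines (limma adjusted p = 0.00152), a call lost with the values as deposited and with array medians set to 1 value. Of 17 markers of HEK293 and embryonic kidney, 6 lay above background in unstimulated control, among them GATA3, IRS4 and VIM. Fibroblast, keratinizing epithelium, blood and hepatocyte markers lay above background in 0 of 10, 0 of 11, 1 of 8 (CD14) and 0 of 6 cases.

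A probe set was called above background in a group when, in both of its arrays, it exceeded the 95th percentile of 1265 probe sets of olfactory receptor genes, a family used mainly in the nose. In unstimulated control cells 135 of the 324 HOX probe sets (41.7%) passed, against 34.8% of the probe sets of all other genes and 2.92% of the olfactory receptor probe sets. The HOXD cluster on chromosome 2 had the highest share, 43 of 78 probe sets (55.1%). HOXA on chromosome 7 had 42 of 101 (41.6%) and HOXB on chromosome 17 had 35 of 85 (41.2%). HOXC on chromosome 12 had the lowest share, 15 of 60 (25%). By paralog group the share was 34.6% in groups 1 to 3 (28 of 81 probe sets), 38.3% in groups 4 to 8 (44 of 115) and 49.2% in groups 9 to 13 (63 of 128). These shares are descriptions of 2 arrays and were not tested.

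A gene was counted as detected when at least 50% of its probe sets, and at least 2, lay above background in unstimulated control. By this count 13 of the 39 HOX genes (33.3%) were detected, against 5251 of 17919 other genes with at least 2 probe sets (29.3%), so the share for the family as a whole was close to that of other genes. They were HOXA5, HOXA6, HOXA7, HOXA9 and HOXA13 in cluster A, HOXB2 and HOXB9 in cluster B, HOXC6 in cluster C, and HOXD4, HOXD9, HOXD10, HOXD11 and HOXD13 in cluster D. HOXA7 and HOXD10 had every probe set above background, 6 of 6 and 5 of 5, and HOXB9 followed with 11 of 13. HOXA6 (2 of 4), HOXA13 (5 of 10) and HOXD13 (2 of 4) stood exactly at the limit, and HOXA10 (5 of 11) and HOXD1 (5 of 11) fell just short of it. HOXB1 (4 probe sets), HOXB13 (3), HOXC4 (5), HOXC5 (5), HOXC10 (5), HOXC11 (5) and HOXD12 (4) had no probe set above background. HOXA5, HOXA6, HOXA7 and HOXA9 are neighbours in cluster A, which has no member 8, and so are HOXD9, HOXD10 and HOXD11 in cluster D. The other detected genes stood apart: HOXD12, with 0 of 4, lay between HOXD11 and HOXD13, and HOXB2 was detected between HOXB1 and HOXB3, which had 0 of 4 and 4 of 12. By paralog group, 1 of 8 genes in groups 1 to 3, 5 of 15 in groups 4 to 8 and 7 of 16 in groups 9 to 13 were detected.

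**Figure D1:**
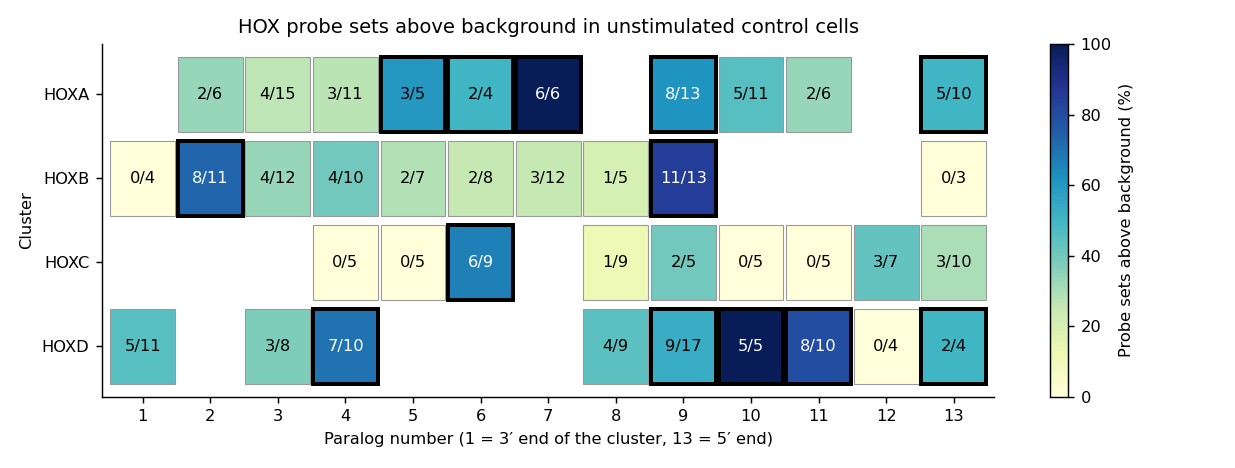
Probe sets above background in unstimulated control cells for the HOX genes, 1 of them not drawn, by cluster (rows) and paralog number (columns); the colour gives the percentage and the text the count of the gene's probe sets. Thick frames mark the 13 genes with at least 50% above background, of which 5 lie in HOXA, 2 in HOXB, 1 in HOXC and 5 in HOXD.

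Upstream sequences were read for their content of CG pairs, which mark CpG islands. RefSeq windows of 250 bases upstream of the start on GRCh38.p14 were at hand for 20 of the 39 genes and gave 26 distinct sequences, since some genes have several starts and HOXC4 and HOXC5 share 1. They held a median of 19.5 CG pairs (range 0 to 40), against 11 over 34788 windows of all genes. Taking the richest window of each gene, the 8 detected members with a window had a median of 23 (4 to 40) and the 12 others a median of 18.5 (7 to 31). The ranges overlapped and the difference was not tested. The windows that follow, with CG pairs in capitals, were chosen by detection in unstimulated control. They are those of the 2 genes with every probe set above background there, HOXA7 (chr7:27156676-27156925, minus strand, 28 CG) and HOXD10 (chr2:176116528-176116777, plus strand, 23 CG), and of 2 genes with none there, HOXB1 (chr17:48531012-48531261, minus strand, 7 CG) and HOXD12 (chr2:176099545-176099794, plus strand, 16 CG). Each is written 5′ to 3′ on the strand of its gene.
HOXA7: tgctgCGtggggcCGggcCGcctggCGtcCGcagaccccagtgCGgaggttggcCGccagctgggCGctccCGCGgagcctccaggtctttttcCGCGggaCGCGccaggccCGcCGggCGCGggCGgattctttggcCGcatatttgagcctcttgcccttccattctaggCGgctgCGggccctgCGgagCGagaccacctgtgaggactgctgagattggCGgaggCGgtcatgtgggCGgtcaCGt
HOXD10: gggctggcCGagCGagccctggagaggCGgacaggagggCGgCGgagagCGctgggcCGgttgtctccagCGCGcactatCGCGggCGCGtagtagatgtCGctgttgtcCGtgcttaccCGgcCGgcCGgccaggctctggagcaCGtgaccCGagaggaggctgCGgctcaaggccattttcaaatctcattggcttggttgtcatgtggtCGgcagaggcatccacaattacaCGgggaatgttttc
HOXB1: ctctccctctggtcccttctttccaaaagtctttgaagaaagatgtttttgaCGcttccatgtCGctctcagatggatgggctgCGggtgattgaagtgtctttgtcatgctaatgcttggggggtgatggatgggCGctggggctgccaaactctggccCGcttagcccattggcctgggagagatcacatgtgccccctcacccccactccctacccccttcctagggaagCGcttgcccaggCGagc
HOXD12: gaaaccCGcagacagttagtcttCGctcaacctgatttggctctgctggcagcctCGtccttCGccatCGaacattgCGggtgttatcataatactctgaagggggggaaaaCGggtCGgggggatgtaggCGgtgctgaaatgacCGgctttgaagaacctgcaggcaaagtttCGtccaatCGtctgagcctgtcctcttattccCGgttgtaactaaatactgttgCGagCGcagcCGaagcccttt

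The TATA box letters TATAAA, searched on both strands, occurred in 5 of the 26 HOX windows (19.2%), those of HOXA3, HOXA9, HOXA10 and HOXD13, against 10.8% of all windows. The letters GCGNGGGCG, the core bound by EGR1, occurred on either strand in 3 HOX windows (11.5%), those of HOXA7, HOXA9 and HOXD1, against 8.41% of all windows. That core contains CG pairs, so its count moves with theirs. A match is a run of letters and not a measured binding site.

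The detected members had the following gene values, which are log2 levels summarised over the gene's probe sets and are not comparable between genes, since probes differ in brightness. In a bulk sample less RNA per cell and fewer expressing cells cannot be told apart. In cluster A, HOXA5, whose mouse counterpart acts in lung and thoracic patterning, had 4.41 and 5.54 in shELL with EGF, 4.64 and 5.21 in unstimulated shELL, 5.17 and 5.25 in control with EGF, and 4.89 and 5.88 in unstimulated control. HOXA6, its neighbour, had 2.69 and 1.95 in shELL with EGF, 2.57 and 2.58 in unstimulated shELL, 2.85 and 2.52 in control with EGF, and 2.23 and 2.31 in unstimulated control. The HOXA5 groups all overlapped, both control arrays with EGF lay above both unstimulated control arrays for HOXA6, and the replicates of shELL with EGF lay furthest apart for both genes. HOXA7, a thoracic patterning gene in the mouse, had 4.43 and 4.65 in shELL with EGF, 5.71 and 4.97 in unstimulated shELL, 5.08 and 5.5 in control with EGF, and 4.90 and 4.62 in unstimulated control. HOXA9, which acts in blood stem cells and in MLL-rearranged leukaemia, had 4.62 and 3.67 in shELL with EGF, 3.54 and 3.94 in unstimulated shELL, 3.56 and 3.70 in control with EGF, and 4.61 and 3.81 in unstimulated control. Its highest values came from 1 array of shELL with EGF and 1 of unstimulated control, and the other replicate of each of these groups was lower. HOXA13, mutated in hand-foot-genital syndrome, had 2.63 and 2.44 in shELL with EGF, 3.29 and 3.11 in unstimulated shELL, 2.72 and 2.26 in control with EGF, and 3.10 and 3.15 in unstimulated control. All 4 EGF arrays lay below all 4 unstimulated arrays for this gene.

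In clusters B and C, HOXB2, which in the mouse patterns the hindbrain, had 5.04 and 4.09 in shELL with EGF, 4.53 and 3.96 in unstimulated shELL, 4.75 and 4.61 in control with EGF, and 4.43 and 4.06 in unstimulated control. HOXB9, a rib-patterning gene in the mouse, had 4.11 and 3.99 in shELL with EGF, 4.18 and 4.15 in unstimulated shELL, 4.49 and 4.21 in control with EGF, and 4.56 and 4.12 in unstimulated control. The HOXB2 values of the shELL groups overlapped, and in control both EGF arrays lay above both unstimulated arrays, as in 24.5% of all genes. HOXB9 was among the most even members, with a range of 0.57 over the 8 arrays. Its arrays of shELL with EGF lay below those of unstimulated shELL (as in 11.5% of all genes) and of control with EGF (14.5%). HOXC6, the only detected member of its cluster, had 3.57 and 3.62 in shELL with EGF, 3.75 and 3.49 in unstimulated shELL, 2.98 and 3.48 in control with EGF, and 3.48 and 3.27 in unstimulated control. All 9 HOXC6 probe sets lie inside the span the files give to HOXC4, as do the 5 of HOXC5, and HOXC4's own 5 probe sets were all at background in unstimulated control.

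In cluster D, HOXD4, which in the mouse patterns the neck vertebrae, had 3.10 and 3.68 in shELL with EGF, 3.0 and 3.79 in unstimulated shELL, 3.64 and 3.90 in control with EGF, and 3.95 and 3.98 in unstimulated control. Replicate 1 was the low array in both shELL groups. HOXD9, a gene of the limb and lumbar region in the mouse, had 4.03 and 4.23 in shELL with EGF, 4.52 and 4.45 in unstimulated shELL, 4.16 and 4.04 in control with EGF, and 3.98 and 4.19 in unstimulated control. HOXD10, which in the mouse acts in hindlimb motor neurons, had 3.73 and 4.93 in shELL with EGF, 4.29 and 4.69 in unstimulated shELL, 3.79 and 3.01 in control with EGF, and 4.40 and 5.34 in unstimulated control. HOXD9 was highest in unstimulated shELL but spanned 0.54 over the 8 arrays, the smallest range of the 37 tested members, and HOXD10 spanned 2.33, the largest but for HOXC10 at 2.36. HOXD11, which together with its paralogs is needed for kidney formation in the mouse, had 3.96 and 3.67 in shELL with EGF, 4.13 and 3.58 in unstimulated shELL, 3.97 and 3.79 in control with EGF, and 3.86 and 3.67 in unstimulated control. HOXD13, mutated in synpolydactyly, had 2.32 and 2.86 in shELL with EGF, 4.09 and 3.55 in unstimulated shELL, 3.5 and 3.41 in control with EGF, and 3.48 and 3.09 in unstimulated control. HOXD11 was even across groups, and the 2 lowest HOXD13 values were those of shELL with EGF.

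**Figure D2:**
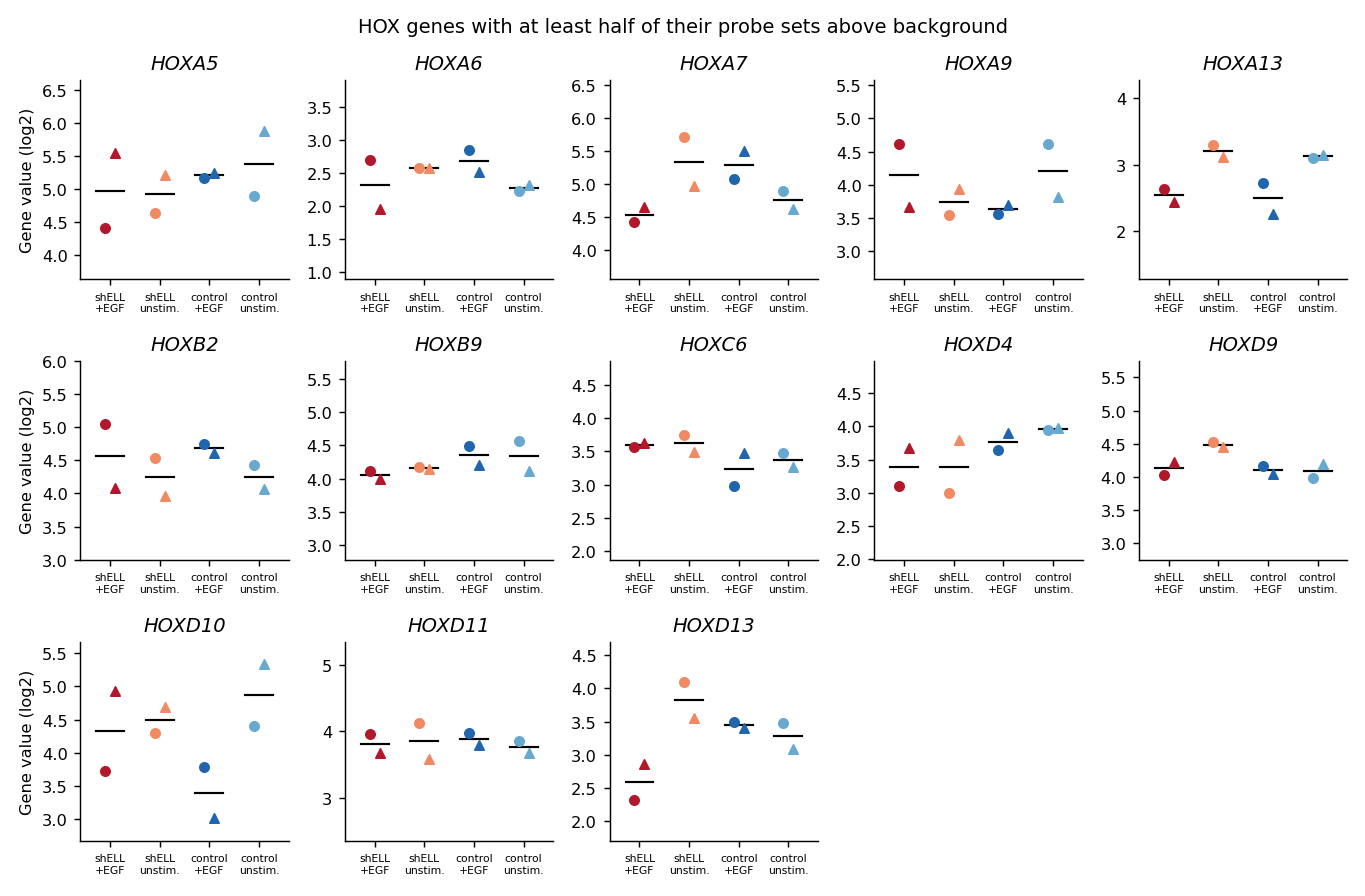
Gene values (log2) of the 13 detected HOX genes in each array, with circles for replicate 1, triangles for replicate 2 and a line at the group mean; each panel has its own axis of equal span. HOXD10 is lowest in control with EGF, HOXD13 in shELL with EGF, and HOXD11 is nearly level.

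The kidney-forming paralogs of group 11 were unequal in detection. HOXD11 had 8 of 10 probe sets above background in unstimulated control, HOXA11 2 of 6 and HOXC11 0 of 5. Group 9 was the most often detected, with HOXA9, HOXB9 and HOXD9 detected and HOXC9 at 2 of 5, so that 30 of its 48 probe sets lay above background. Group 1, expressed furthest towards the head, had 7 of 29 probe sets above background and no detected member. In group 13, HOXA13 and HOXD13 were detected, HOXC13, a hair follicle gene, had 3 of 10 and HOXB13, a prostate gene, 0 of 3.

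Fewer probe sets were above background in the other groups, for HOX and other genes alike. Above background were 74 HOX probe sets in shELL with EGF (22.8%, against 17.1% of other genes' probe sets), 106 in unstimulated shELL (32.7%, against 26.4%) and 101 in control with EGF (31.2%, against 23.5%). The background itself differed between arrays: the olfactory receptor threshold was 4.27 and 2.59 in shELL with EGF, 3.45 and 2.35 in unstimulated shELL, 3.09 and 3.54 in control with EGF, and 2.84 and 2.29 in unstimulated control. The part of these thresholds in the counts was not tested. Across all 8 arrays 60 HOX probe sets (18.5%, against 13% of other genes') were above background in every array, and they belonged to 25 genes, led by HOXB2 with 7 of 11, HOXD9 with 6 of 17 and HOXB9 with 5 of 13. A further 103 (31.8%, against 38.9%) were above it in none.

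Within a gene the probe sets were uneven. In HOXA9 the probe set nearest the 5′ end, of 29 bases, lay between 7.89 and 8.67 in the 8 arrays, and the 3 nearest the 3′ end lay between 0.05 and 2.14. In HOXC12, a gene with 3 of 7 probe sets above background, the third probe set of 25 bases lay between 10.84 and 12.18, the highest of the family, while the 4 outside the bright stretch were at background in every array. The HOXC12 gene value of 5.37 to 5.92 summarises 4 probe sets, 3 above background in every array and 1 in none. HOXB3, with 4 of 12 above background in unstimulated control, had a probe set of 30 bases between 10.1 and 11.1. Of the 10 HOX probe sets of highest mean value, 8 were at most 50 bases long, against 113 of all 324 (34.9%). Short probe sets also passed more often among other genes: of those up to 50 bases 52.2% passed for HOX, 37% for other genes and 4.87% for olfactory receptors, and of those over 150 bases 25.6%, 26.9% and 0.962% passed. With thresholds set within 3 length classes, added after seeing the data, 146 HOX probe sets (45.1%, against 35.3% of other genes') were above background. The 13 detected genes were then joined by HOXA10, HOXC9 and HOXD1. By position within the gene, 76 of 151 probe sets in the 5′ portion (50.3%) and 50 of 151 in the 3′ portion (33.1%) were above background, not counting the 22 in the middle.

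**Figure D3:**
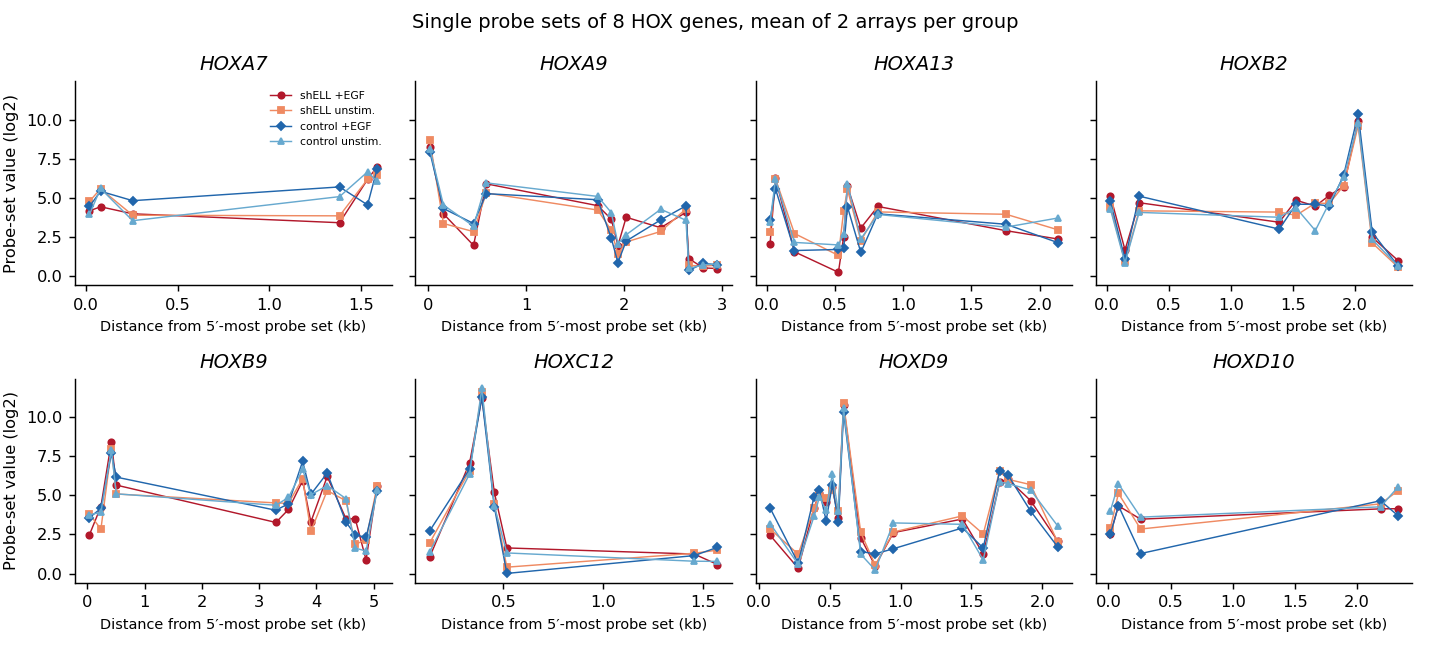
Log2 values of single probe sets along 8 HOX genes, as the mean of 2 arrays per group, against distance in kb from the probe set nearest the 5′ end. In all 4 groups the brightest probe set is the same in HOXA9, HOXB2, HOXC12 and HOXD9, and its mean over the 8 arrays is 11.5 in HOXC12 and 10.65 in HOXD9.

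The remaining 26 genes were not detected in unstimulated control, and 24 of them passed the filter on dim probe sets and were tested. Among these, HOXC9 had gene values of 3.21 to 4.98, HOXB4 of 3.0 to 3.79 and HOXD1 of 2.67 to 3.78 over the 8 arrays. HOXB1, HOXC4, HOXC10, HOXC11 and HOXD12, with no probe set above background in unstimulated control, had values of 1.43 to 2.44, 1.37 to 2.61, 1.12 to 3.48, 0.96 to 2.67 and 1.06 to 2.21. In other groups HOXB1 had 1 probe set above background in each shELL group, HOXC4 had 1 in unstimulated shELL and HOXC11 had 1 in each EGF group. The highest HOXC10 value, 3.48, came from replicate 1 of shELL with EGF, and its other 7 arrays lay between 1.12 and 2.14. HOXB13 (0.44 to 1.34) and HOXC5 (0.43 to 2.07) did not pass the filter and were not tested.

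Stimulation with EGF was compared with no stimulation to see whether HOX genes change within 1 h, in each line and averaged over both. None of the 37 tested HOX genes passed the test in any of these 3 comparisons (limma with Benjamini-Hochberg adjustment over 16145 genes, threshold 0.05). In each of them 0.00619% of all genes passed, which is 1 gene, EGR1. At an unadjusted p under 0.05 there were 2 of 37 members in control (background 2.69% of all genes), 3 in shELL (2.47%) and 3 in the average (3.17%). The median log2 difference of the members was 0.166 in control, -0.046 in shELL and -0.051 in the average, against 0.07, 0.001 and 0.045 over all genes. The comparisons share arrays with the average and are not independent. The SD of the member median between replicates was 0.26, larger than each of these medians. Both EGF arrays lay above both unstimulated arrays for 14 of 37 members in control (24.5% of all genes) and 3 in shELL (10.4%), and below them for 7 in control (15.7%) and 9 in shELL (11.5%).

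HOXA13 had the smallest unadjusted p in the average. Its difference was -0.65 (SE 0.21, 95% interval -1.12 to -0.18, limma adjusted p = 0.901), with -0.67 in shELL and -0.64 in control. It was -0.43 without replicate 2 of unstimulated control, -0.39 without replicate 2 of control with EGF and -1.03 with the values as deposited. The highest of the 4 EGF arrays was 2.72 and the lowest of the 4 unstimulated arrays 3.10. A complete separation downwards was found in 1.13% of all genes and for 1 of 37 members. HOXB7, a paralog group 7 gene of cluster B with 3 of 12 probe sets above background, was the 1 member separated upwards (1.58% of all genes). It had 3.10 and 3.19 in shELL with EGF, 2.87 and 2.64 in unstimulated shELL, 3.05 and 3.51 in control with EGF, and 2.87 and 2.87 in unstimulated control. Its difference was 0.40 (SE 0.21, limma adjusted p = 0.901).

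HOXC8 and HOXD10 came next. HOXC8, a thoracic gene of cluster C in the mouse with 1 of 9 probe sets above background, had 3.13 and 2.24 in shELL with EGF, 2.48 and 2.22 in unstimulated shELL, 2.62 and 3.70 in control with EGF, and 2.02 and 2.11 in unstimulated control. The averaged difference was 0.71 (SE 0.30, 95% interval 0.03 to 1.4, limma adjusted p = 0.901), and it was 0.52 without replicate 1 of shELL with EGF, 0.42 without replicate 2 of control with EGF, 0.47 with the mean of the probe sets and 0.22 with the values as deposited. For HOXD10 the averaged difference was -0.82 (SE 0.35, 95% interval -1.61 to -0.03, limma adjusted p = 0.901), and it was -0.26 without replicate 2 of unstimulated control, -0.27 without replicate 2 of control with EGF, -0.50 without replicate 1 of shELL with EGF and -1.24 with the values as deposited. In control alone HOXD10 differed by -1.47 (SE 0.49, limma adjusted p = 0.996), with both EGF arrays below both unstimulated arrays, as in 15.7% of all genes. Leaving out replicate 2 of unstimulated control gave -0.82 and leaving out replicate 2 of control with EGF -0.71. In shELL the HOXD10 difference was -0.16 (SE 0.49) and the arrays overlapped. HOXD13 had the smallest unadjusted p in shELL, with a difference of -1.23 (SE 0.33, 95% interval -1.98 to -0.47, limma adjusted p = 1), against 0.17 (SE 0.33) in control. It was -1.0 without replicate 1 of shELL with EGF, -0.72 without replicate 2 of control with EGF and -0.53 with no filter on dim probe sets. Normalization and the filter were run again for each array left out, so a control array can move a difference within shELL.

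**Figure D4:**
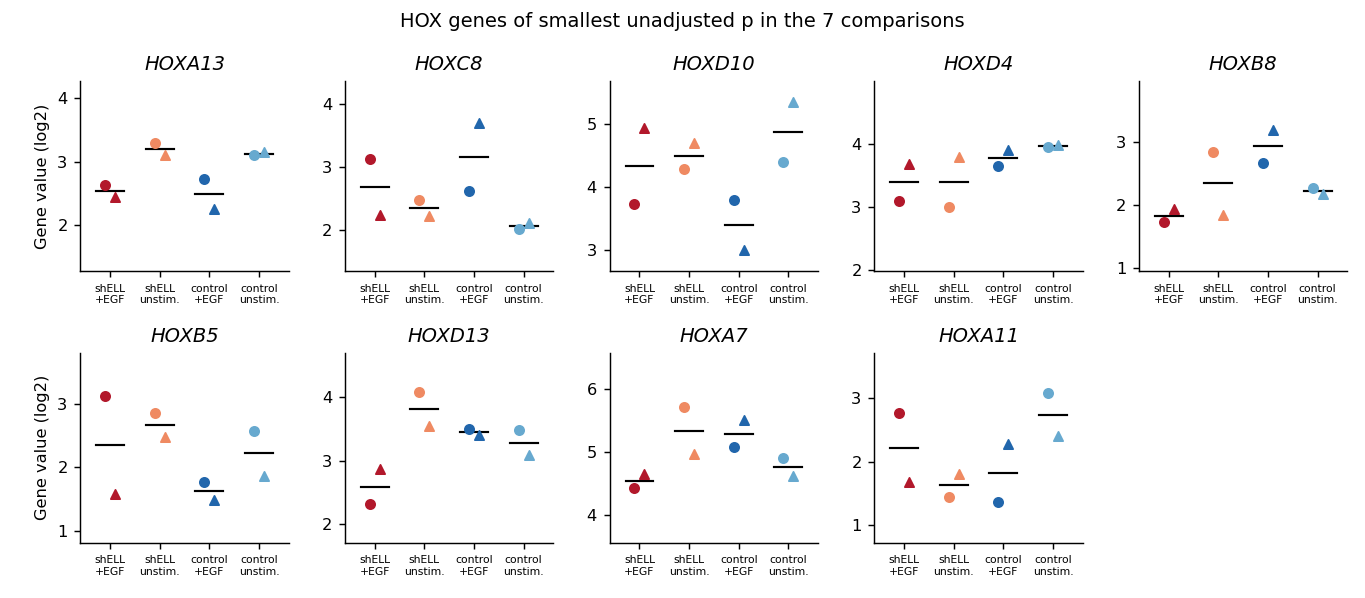
Gene values (log2) in each array of the 9 HOX genes with the smallest unadjusted p in the 7 comparisons, with circles for replicate 1, triangles for replicate 2 and a line at the group mean; each panel has its own axis of equal span. HOXA13 is lower in the 4 EGF arrays than in the 4 unstimulated arrays; no gene shown passed after adjustment.

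The arrays labelled shELL were compared with control for the difference between the lines. No HOX gene passed without EGF, with EGF or in the average, and no gene of the array did (percent called 0 in each). Unadjusted p was under 0.05 for 1, 2 and 0 of the 37 members, against 206, 511 and 426 of 16145 genes (1.28%, 3.17% and 2.64%). The median difference of the members was 0.123 without EGF, -0.139 with EGF and -0.058 in the average, against 0.028, -0.039 and -0.003 over all genes. Both shELL arrays lay above both control arrays for 9 members without EGF (15% of all genes) and 2 with EGF (9.62%), and below them for 5 without EGF (13.4%) and 9 with EGF (14.5%). HOXA9 differed by 0.02 in the average (SE 0.29).

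The 3 members of smallest unadjusted p in the average were HOXD4, HOXB8 and HOXB5. For HOXD4 the difference was -0.47 (SE 0.25, 95% interval -1.05 to 0.1, limma adjusted p = 1), and replicate 2 of each shELL group, at 3.68 and 3.79, lay within the range of the control arrays with EGF. The HOXD4 difference was -0.05 with the values as deposited and -0.21 with array medians set to 1 value. It was -0.24 without replicate 1 of unstimulated control, -0.26 without replicate 1 of unstimulated shELL and -0.20 without replicate 2 of shELL with EGF. HOXB8, a gene of trunk patterning in the mouse, had 1.73 and 1.94 in shELL with EGF, 2.84 and 1.85 in unstimulated shELL, 2.67 and 3.19 in control with EGF, and 2.27 and 2.17 in unstimulated control. Its averaged difference was -0.48 (SE 0.27, limma adjusted p = 1) and it was -1.10 with EGF (SE 0.38, limma adjusted p = 1). The averaged HOXB8 difference was -0.26 without replicate 2 of unstimulated shELL and -0.29 with the values as deposited. HOXB5, a trunk gene that also acts in gut innervation, had 3.13 and 1.57 in shELL with EGF, 2.85 and 2.48 in unstimulated shELL, 1.76 and 1.49 in control with EGF, and 2.58 and 1.86 in unstimulated control. Its averaged difference of 0.59 (SE 0.35, limma adjusted p = 1) came to 0.08 without replicate 1 of shELL with EGF, 0.23 without replicate 1 of unstimulated shELL, 0.26 without replicate 2 of control with EGF and 0.93 without replicate 2 of shELL with EGF. It was 0.20 with array medians set to 1 value, 0.35 with the values as deposited and 0.30 with the filter at the 50th percentile. HOXB8 and HOXB5 had 1 of 5 and 2 of 7 probe sets above background in unstimulated control.

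Without EGF the smallest unadjusted p was that of HOXA11, which with HOXD11 acts in kidney formation in the mouse. HOXA11 had 2.77 and 1.67 in shELL with EGF, 1.44 and 1.81 in unstimulated shELL, 1.36 and 2.28 in control with EGF, and 3.08 and 2.40 in unstimulated control. The difference without EGF was -1.11 (SE 0.47, limma adjusted p = 1), with both shELL arrays below both control arrays, as in 13.4% of all genes. It was -0.70 without replicate 1 of unstimulated control, -0.54 with the values as deposited and -0.34 with no filter on dim probe sets. HOXC6 was the 1 member whose 4 shELL arrays all lay above its 4 control arrays (1.11% of all genes), though the lowest shELL value was 3.49 and the highest control value 3.48. Its averaged difference was 0.31 (SE 0.21, limma adjusted p = 1), and no member was separated downwards (1.47% of all genes).

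The EGF difference in shELL was set against that in control as an interaction. No HOX gene and no gene of the array passed (percent called 0), and 4 members had an unadjusted p under 0.05, against 1.73% of all genes. HOXD13 had an interaction of -1.40 (SE 0.47, 95% interval -2.47 to -0.33, limma adjusted p = 1), HOXA7 of -1.34 (SE 0.49, 95% interval -2.44 to -0.23, limma adjusted p = 1) and HOXB8 of -1.22 (SE 0.54, 95% interval -2.44 to -0.01, limma adjusted p = 1). The fourth, HOXA11, had 1.51 (SE 0.66, limma adjusted p = 1). For HOXA7 the EGF difference was -0.81 in shELL and 0.53 in control, and the groups did not overlap in either line. Of the 37 members, 26 had an interaction below 0, with a median of -0.158 against -0.066 over all genes. Set against that all-gene median, 22 members lay below it and 15 above. By cluster the medians were -0.06 in HOXA, -0.30 in HOXB, -0.29 in HOXC and -0.17 in HOXD. Without replicate 1 of shELL with EGF the member median was -0.33, and HOXD13, HOXA7 and HOXB8 had interactions of -1.25, -1.09 and -1.09. Over all single arrays left out the interaction ran from -1.62 to -0.83 for HOXD13 (-0.83 without replicate 2 of control with EGF), from -1.39 to -0.91 for HOXA7 and from -1.74 to -0.64 for HOXB8 (-0.64 without replicate 1 of unstimulated shELL). Other settings gave -0.51 for HOXD13 with no filter and -0.92 with the mean of the probe sets, and -0.71 for HOXB8 with no filter. HOXA7 had -0.42 with the mean of the probe sets, -2.32 with the values as deposited and -2.14 with array medians set to 1 value.

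**Figure D5:**
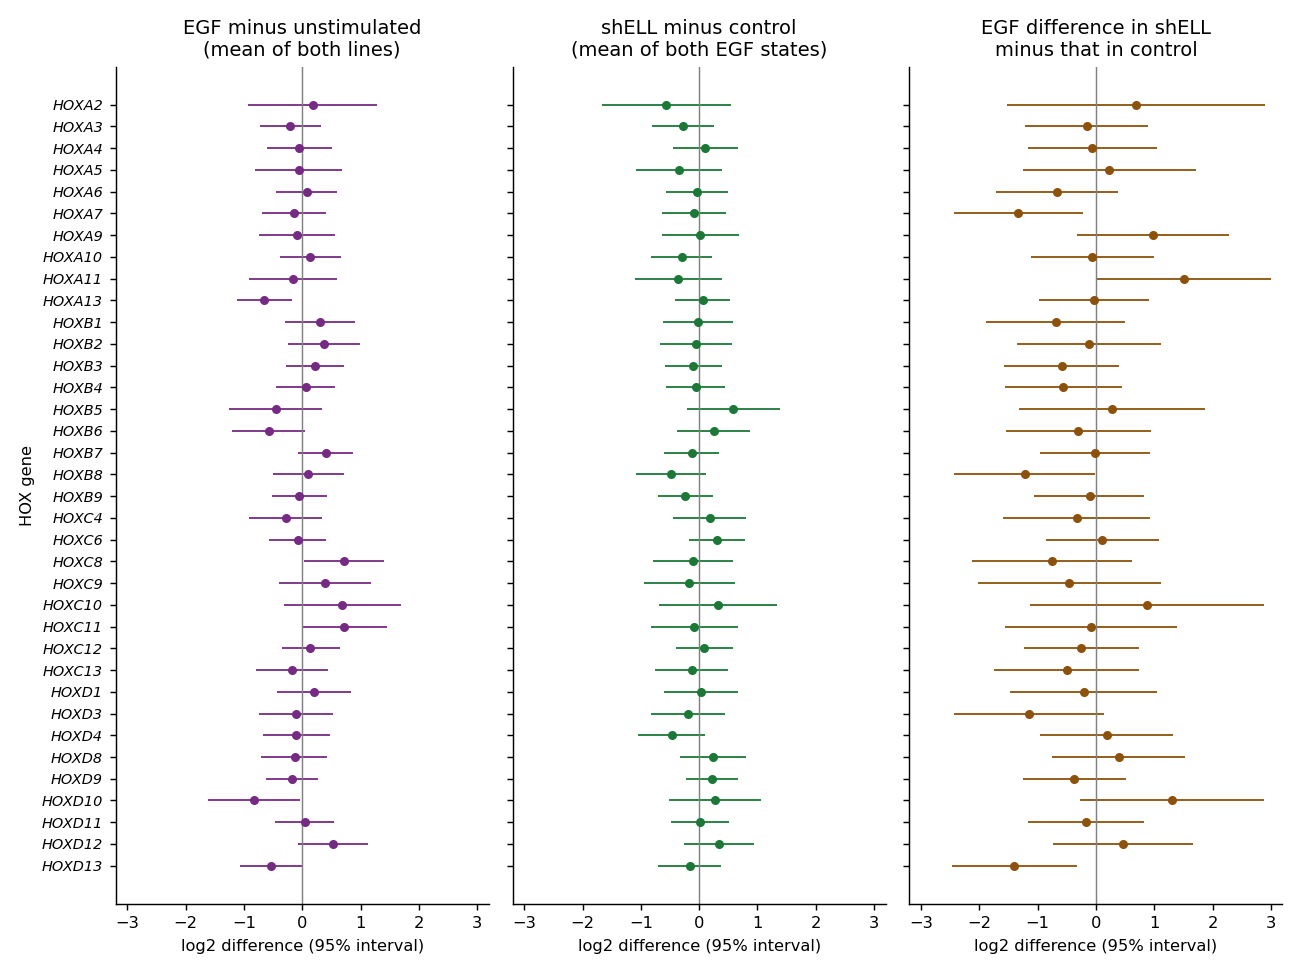
Log2 differences with 95% intervals for the tested HOX genes, 1 of them not drawn, for EGF minus unstimulated averaged over both lines (left), shELL minus control averaged over both EGF states (middle) and the EGF difference in shELL minus that in control (right). HOXA13 lies below 0 on the left (interval -1.12 to -0.18), and the intervals are widest on the right.

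The intervals limit the size of change in gene value that could have been missed. The counts that follow include the 24 tested members that were not detected. Values at background may not follow the RNA, so the intervals of such members do not bound a change in it. For 26 of 37 members the 95% interval of the averaged EGF difference lay within 1 log2 unit of 0 (73.5% of all genes), and for 29 that of the averaged shELL difference did (79.2%). For the interaction this held for 2 members (3.87%), so differences of 2-fold between the lines in their EGF response were not excluded for the other members. Among the 13 detected genes, the averaged EGF difference ran from -0.82 to 0.37 and the averaged shELL difference from -0.47 to 0.31, each with a median SE of 0.24. The gap between replicates had a median over members of 0.48 in shELL with EGF, 0.37 in unstimulated shELL, 0.42 in control with EGF and 0.30 in unstimulated control, and the corresponding medians over all genes were 0.59, 0.35, 0.31 and 0.28.

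Genes that act on or with the HOX clusters were read from lists. Of 9 genes for the PBX, MEIS and PKNOX partners of HOX proteins, 1 was detected in unstimulated control, and of 30 Polycomb genes 13. Detected were also 8 of 12 MLL and COMPASS genes, 3 of 18 CDX and retinoic acid genes, and 2 of 13 flanking or related homeobox genes. By the same rule 29.3% of all genes outside the HOX family were detected, and the differences from that share were not tested. None of the listed genes passed in any of the 7 comparisons. PBX4, a HOX partner of the PBX family, had the smallest unadjusted p of its list in the averaged shELL comparison. It had 1.62 and 1.5 in shELL with EGF, 1.62 and 1.66 in unstimulated shELL, 2.52 and 2.76 in control with EGF, and 1.93 and 1.91 in unstimulated control. All 4 shELL arrays lay below all 4 control arrays, as in 1.47% of all genes, and the difference was -0.68 (SE 0.19, limma adjusted p = 1). In every array the PBX4 gene value was below the olfactory receptor threshold. The same choice gave RBBP4, a histone-binding Polycomb subunit, at -0.47 (SE 0.26), and RBBP5, a COMPASS core subunit, at 0.32 (SE 0.21). It gave CYP26B1, which breaks down retinoic acid, at -0.33 (SE 0.21), and EN2, an engrailed homeobox gene, at 0.53 (SE 0.23), with limma adjusted p = 1 for all 4.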

How the data were processed

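Total RNA of 8 samples was hybridised to Affymetrix Human Exon ST 1.0 arrays. Deposited were log2 values per probe set, made with Affymetrix Expression Console and RMA per the submitters' processing notes, which name no version. A second deposited table gave the authors' mean log2 value per group (within 5e-05 of the mean of the arrays), gene symbols and positions, with a genome build not given in the sources used here. Per-sample columns left unused numbered 0. Of 287329 probe sets, 280649 had 1 gene symbol, 35 several and 6645 none. Only those with 1 symbol were used.

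The log2 values were quantile normalized (limma 3.58.1, R 4.3.3). Probe sets were kept from the 25th percentile of the 8-array mean upwards. Genes with at least 3 of them, 16145 genes with 209106 probe sets, each got 1 value per array by median polish of up to 10 iterations. Of the 324 HOX probe sets 271 passed, and 37 of 39 HOX genes were tested. limma was fitted to the 4 group means (4 residual degrees of freedom), with Benjamini-Hochberg adjustment over all genes within each of 7 comparisons. All 39 symbols matched RefSeq. Detection used the quantile-normalized values. The scripts were tested on simulated data. The number of arrays limits the precision, and no depth applies to arrays.

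The HOX members, the gene lists and the tests were chosen with earlier results of these data known, and quantile normalization was the choice of an earlier account of these arrays. Array values in full are given for detected members and for the members of smallest unadjusted p. The latter were 3 in each averaged comparison and the interaction, and 1 in each other comparison. From each list of genes that act on or with the HOX clusters, the gene of smallest unadjusted p in the averaged shELL comparison is named. Genes of the marker lists are named only for lying above background or not, without values. HOXB7 and HOXC6 as separated genes, and HOXA11 in the interaction, were named after their values were seen. The values of 1 HOX gene are not reported here, although it is part of the counts and medians. Alternatives were the values as deposited, median centring, other filters, gene summaries, variance models, array weights, the compared groups alone, a replicate block, other detection thresholds and leaving out each array. Tests on single probe sets, 1 threshold for all arrays and thresholds by length were added after seeing the data.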

Additional observations from a re-analysis of the deposited data

Results flagged for a closer look

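HOXA7 and HOXD3 drew attention because both arrays with EGF lay on 1 side of both unstimulated arrays in shELL and on the opposite side in control. The EGF difference in shELL minus that in control was -1.34 for HOXA7 (SE 0.49) and -1.15 for HOXD3 (SE 0.56). This difference was tested for each as an interaction and did not pass (limma adjusted p = 1 for both). HOXA7 had all 6 probe sets above background in unstimulated control and HOXD3 had 3 of 8. HOXD3 differed with EGF by -0.69 in shELL (SE 0.40) and by 0.46 in control (SE 0.40). Opposed differences of this kind were found in 502 of 16145 genes (3.11%).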

How the results depend on the processing

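No HOX gene passed in any of the 7 comparisons under any alternative run, single probe sets included, where 271 HOX probe sets and 211764 in all were tested with limma and 0 were called (5 to 13 HOX probe sets per comparison at an unadjusted p under 0.05). The named HOX differences kept their sign in 119 values under other settings and 104 with 1 array left out, but most moved by over 1.5 times under some of them, as given beside each. Their lowest adjusted p was 0.105, for HOXD13 with EGF in shELL, and the range for HOXA13 in the averaged EGF comparison was 0.156 to 1. With the values as deposited the HOX median was -0.881 for EGF in shELL, -0.486 for EGF averaged, 0.492 for shELL without EGF and -0.888 for the interaction, beside all-gene medians of -0.685, -0.363, 0.486 and -0.663. With array medians set to 1 value it was -0.445 for EGF in shELL, -0.43 for shELL with EGF and -0.644 for the interaction, beside all-gene medians of -0.247, -0.248 and -0.431. The other 67 median differences moved by less than the replicate spread, as did the 56 with 1 array left out, but several lie near 0. The sign of the median changed with an array left out for EGF averaged (-0.091 to 0.112), EGF in shELL (-0.165 to 0.035), shELL averaged (-0.143 to 0.061), shELL with EGF (-0.367 to 0.02) and shELL without EGF (-0.038 to 0.254). It kept its sign for EGF in control (0.024 to 0.348) and for the interaction (-0.333 to -0.014). HOX probe sets above background in unstimulated control numbered 57 with the 99th percentile as threshold, 170 with the 90th and 115 with 1 threshold for all arrays, and 135 to 169 with 1 array left out.

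The count of all genes called, 1 (EGR1) for EGF in control, in shELL and averaged, was 0 in all 3 for the values as deposited, for array median centring and on single probe sets. For EGF in shELL it was 0 with every other alternative that moved it: the 50th percentile filter, the mean of the probe sets, at least 1 probe set per gene, the trend and robust variance model, array weights, only the groups compared and the replicate block. For EGF in control it was 0 with at least 1 probe set and 2 with array weights or the replicate block. For EGF averaged it was 2 with the mean of the probe sets or the replicate block. With 1 array left out it ran from 0 to 1 for EGF in control, 0 to 0 in shELL and 0 to 1 averaged. Beyond the smaller number of arrays or genes in some of these fits, the cause was not tested. The replicate differences of control with EGF correlated at -0.31 to -0.16 with those of the other groups, which correlated with one another at 0.37 to 0.51. A pairing of all 4 groups by number was therefore not taken as given, and the block changed no HOX call. With 2 arrays per group, only large changes can be bounded, and for dim members near background the values do not bound a change in RNA.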
